A study of Mus musculus with 51 samples.

Results

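The collagen chain genes of mouse gastrocnemius, a calf muscle rich in fast fibres, were followed across all 51 libraries of the series. A gene was taken as a member when its symbol consisted of Col, a number, the letter a and a number, with nothing after it, and when it was listed in the count tables of both sequencing batches. This gave 44 genes of the 48294 symbols that could be joined between the tables. The members were sorted by textbook class into 11 chains of fibrillar collagens, 9 chains of the basement membrane and its borders (6 of type IV, and the chains of types VII, XV and XVIII), and 24 others (6 of type VI, 9 fibril-associated, 3 short-chain network, 4 transmembrane and 2 more).

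RNA came from whole frozen gastrocnemius, 1 library per animal, and was read as 3′ end tags. Batch 1 held, on Regular chow, 4 Control (Bmal1fx/fx) and 3 Bmal1KO animals, and, on High-fat diet, 7 Control (Bmal1fx/fx) and 5 Bmal1KO animals. Batch 2 was on High-fat diet throughout and held 3 lines, each with its own floxed controls: 8 Control (Bmal1fx/fx) and 4 Bmal1KO animals, 6 Control (Vhlfx/fx) and 4 VhlKO animals, and 6 Control (Bmal1fx/fx;Vhlfx/fx) and 4 Bmal1KO;VhlKO animals. All controls carried the floxed allele or alleles of their line. The series describes the Bmal1 loss as specific to skeletal muscle; the driver of the deletions, the deleted exons, the age, the hour of harvest and the length of the diet are given in none of the sources used here.

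Collagens are built from 3 chains wound into a helix. Fibrillar collagens (types I, III and V in muscle) form the cables of tendon, epimysium and endomysium and are made mainly by fibroblasts. Type IV forms the meshwork of the basement membrane around fibres and capillaries, and fibroblasts, endothelial cells and pericytes all contribute to it. Type VI makes beaded filaments that link this layer to the fibrils. Chains are hydroxylated in the endoplasmic reticulum by enzymes that need oxygen, among them P4ha1 and Plod2, which are known targets of hypoxia-inducible factors (HIF). VHL marks HIF proteins for breakdown, and BMAL1 is the core activator of the circadian clock.

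Col4a1 and Col4a2, whose products join in the common form of type IV collagen, are shown first because they are the pair on which the results below turn. They lie head to head on chromosome 8, Col4a1 at chr8:11198423-11312826 on the minus strand and Col4a2 at chr8:11312805-11449287 on the plus strand (GENCODE M21 on GRCm38). The stretch below is the plus strand of GRCm38.p6 (RefSeq) at chr8:11312801-11312830, and its capitals mark the 22 bases that belong to both transcripts, from the Col4a2 start site at 11312805 to the Col4a1 start site at 11312826.
Col4a1 and Col4a2 shared start: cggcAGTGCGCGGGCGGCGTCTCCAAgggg
The promoter windows of the pair, 250 bases before to 50 after each start site, overlap by 78 bases. Their GC content is 74.0% for Col4a1 and 73.7% for Col4a2, against a median of 52.7% over all promoter windows. Both windows hold CCAAT and GGGCGG on either strand, letters that 37.9% and 35.9% of the 27025 windows also hold. Of the 44 members 35 had a promoter window in the table. CACGTG, the letters bound by clock activators, was in 0 of these 35 windows and in 7.24% of all windows. ACGTG, the core of the hypoxia response element, was in 5 of the 35, those of Col1a2, Col4a4, Col5a1, Col6a6 and Col11a2, and in 19.7% of all windows (the motif lies inside CACGTG, so the shares overlap). These are matches of letters and do not show binding.

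The libraries held 6945247 to 14717795 counts, of which mitochondrial transcripts took 16.6 to 42.4%. Collagen genes together took 0.0370 to 0.118% of the counts. Levels below are normalized CPM, counts divided by the library size after TMM scaling and brought to one common total. The fibre markers Acta1, Ckm, Myh4, Pvalb, Tnnt3 and Ttn were abundant in every library. Arntl, the gene of BMAL1, was at 5.29 to 9.03 CPM in Bmal1KO and 12.2 to 18.7 CPM in controls of batch 1 on High-fat diet. In batch 2 the 2 groups overlapped (8.16 to 10.5 against 8.60 to 12.9 CPM). Vhl was at 0.796 to 2.69 CPM in VhlKO and 1.69 to 5.09 CPM in controls. A 3′ tag may lie outside the deleted part, so neither gene checks the labels. 6 libraries of batch 2 had keratinocyte markers above 20 CPM in sum, with the highest sum in Bmal1KO animal 6 (84.5 CPM), which also held the highest Col17a1 level, 4.60 CPM, a chain of skin basal cells. The Vhl control numbered 6 stood apart with the highest adipocyte marker sum of its group, 346 CPM, and the highest fibrillar collagen sum. In bulk muscle, fewer cells of a type and less RNA per cell cannot be told apart.

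A 3′ tag is counted once per transcript end, so tag counts do not scale with gene length. Levels of different chains are set side by side below on this scale. Whether transcripts of different chains yield tags equally was not tested, so the ranks and shares are those of tags. Over all libraries, Col1a2 had the highest mean level, 174 unscaled CPM, followed by Col3a1 (105 CPM) and Col1a1 (76.0 CPM), the chains of the main fibrils. Col4a1 (73.9 CPM) and Col4a2 (35.3 CPM) came next. The fibrillar class took 62.2% of collagen CPM, the basement membrane class 20.8% and the other chains 17.0%. The 5 highest genes together held 70.7%. Of the 44 members, 29 had a mean above 1 CPM, 12 above 10 CPM and 4 below 0.1 CPM (Col6a4, Col9a2, Col9a3 and Col10a1), and 0 were at 0 in every library. The filter on low counts kept 30 members in batch 1 and 33 in batch 2. Those left out of both were Col2a1, Col4a6, Col6a4, Col6a5, Col9a2, Col9a3, Col10a1, Col17a1, Col20a1, Col26a1 and Col28a1, among them the cartilage chains of types II, IX and X, and Col9a1, Col24a1 and Col25a1 were left out in batch 1 alone.

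**Figure D1:**
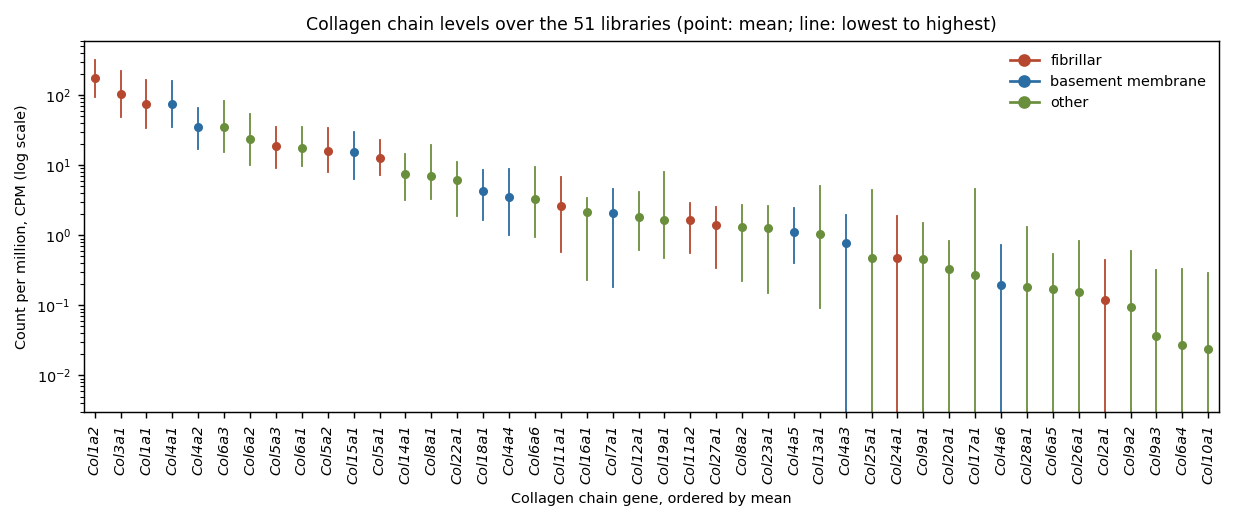
Mean level of each collagen chain gene over the libraries on a logarithmic axis of unscaled CPM, coloured by class. Col1a2, at 174 CPM, leads the fibrillar class, Col4a1, at 73.9 CPM, leads the basement membrane class, and 4 chains lie below 0.1 CPM.

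On High-fat diet the total level of collagen transcripts was 551 ± 115 CPM in batch 1 controls (SD, n = 7) and 442 ± 65.5 CPM on chow (n = 4). In Bmal1KO animals it was 665 ± 63.7 CPM (n = 5) on High-fat diet and 459 ± 62.2 CPM (n = 3) on chow. In batch 2 the sum was 968 ± 112 CPM in VhlKO (n = 4) and 798 ± 171 CPM in their controls (n = 6). It was 754 ± 108 CPM in Bmal1KO;VhlKO (n = 4) and 637 ± 37.5 CPM in their controls (n = 6). In the 4 Bmal1KO animals of batch 2 it was 628 ± 89.0 CPM and in their 8 controls 607 ± 41.8 CPM. Ranges of the sum overlapped within each knockout line of batch 2 and in the diet comparison of controls. In Bmal1KO all 5 libraries on High-fat diet (576 to 726 CPM) were above the 3 on chow (393 to 516 CPM).

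Each gene was tested with edgeR's quasi-likelihood test, and a gene was called at a Benjamini-Hochberg adjusted p under 0.05 over all genes tested. High-fat diet in controls raised 4 of the 30 tested members and lowered 2, where 2.37% of all genes were called (1.51% higher and 0.854% lower). Their median log2 fold change was 0.32, against -0.01 over all genes. In Bmal1KO the diet raised 6 of 30 and lowered 0, where 3.28% of all genes were called (1.72% higher and 1.57% lower), with a member median of 0.43. In both diet comparisons the share of members called was above the background. The difference between them, tested as diet by genotype, was called for 0 members and for 0 of 12762 genes with edgeR (5 members at an unadjusted p under 0.05, and 0 members called with DESeq2).

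Bmal1KO on High-fat diet raised 2 of 30 members in batch 1, where 9.00% of all genes were called (3.82% higher and 5.18% lower). In batch 2 it raised 1 and lowered 2 of 33, where 13.9% were called (6.94% higher and 6.96% lower). These counts are near or below the background. Bmal1KO on chow called 0 of 30 members with edgeR against 3.84% of all genes, with 4 members at an unadjusted p under 0.05 and 0 called with DESeq2. On simulated counts this comparison recovered only 14.9% of 1.5-fold changes. The effect of Bmal1KO on High-fat diet differed between batches for 0 members with edgeR, against 0.00796% of all genes (3 at an unadjusted p under 0.05, 0 with DESeq2).

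VhlKO raised 10 of 33 members and lowered 2, where 37.2% of all genes were called (17.7% higher and 19.5% lower). Bmal1KO;VhlKO raised 5 and lowered 1 of 33, where 35.4% were called (17.4% higher and 18.1% lower). The member medians were 0.33 and 0.19, against 0.01 over all genes in each. Neither count of members called is above its background, and most calls were upward. Without scaling factors the median of all genes moved by 0.34 in VhlKO, 0.35 in Bmal1KO;VhlKO, 0.16 in Bmal1KO of batch 1 on High-fat diet and -0.17 with diet in controls. In the lines without Vhl the calls then became 17 higher and 0 lower in VhlKO, and 21 higher and 1 lower in Bmal1KO;VhlKO. Changes below are relative to the scaled median.

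**Figure D2:**
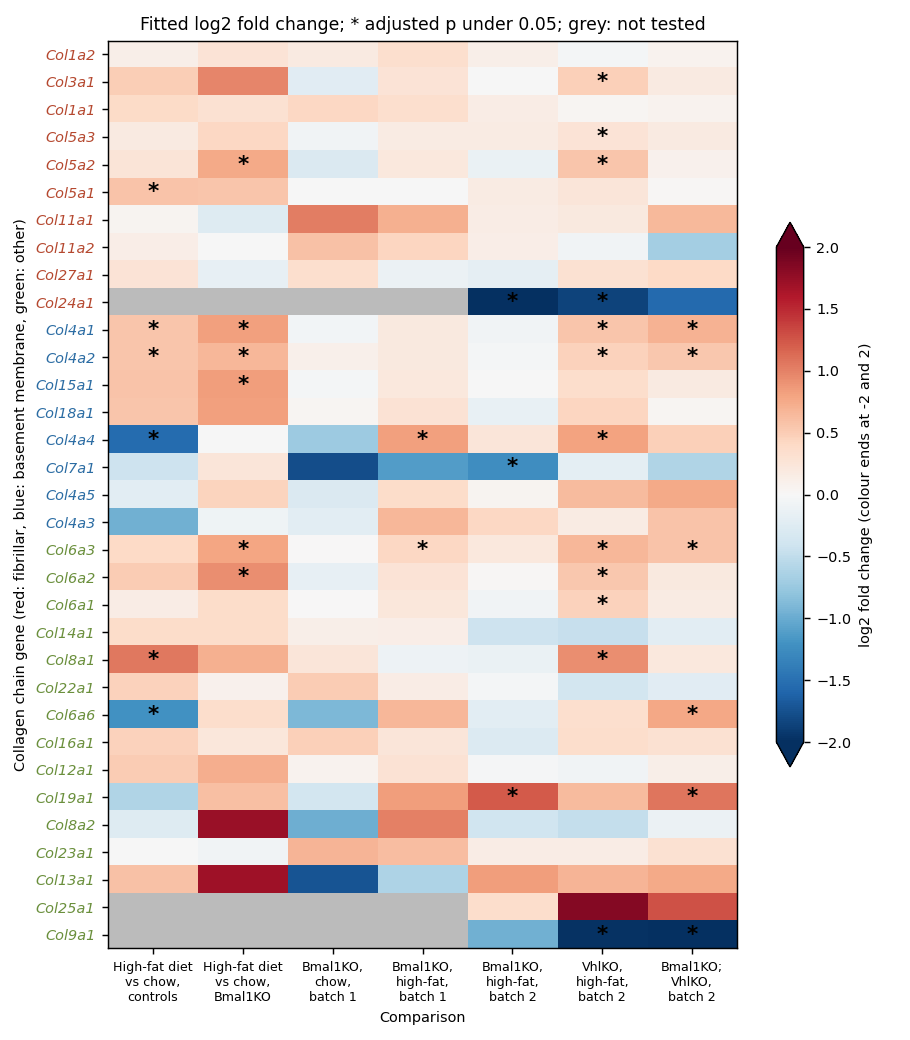
Log2 fold changes of the tested collagen chain genes in the diet and knockout comparisons, ordered by class, with the genes called at an adjusted p under 0.05 marked. Col4a1 and Col4a2 are higher in both diet comparisons and in VhlKO and Bmal1KO;VhlKO, and Col1a1 and Col1a2 are called in no comparison.

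Col1a1 and Col1a2, the chains of type I collagen, were called in none of the 12 comparisons. Col1a2 was at 156, 225 and 329.9 CPM (lowest, median and highest) in Vhl controls and 200.1 to 255 CPM in VhlKO, a log2 fold change of -0.05 ± 0.14. For Col1a1 the log2 fold change in VhlKO was 0.04 ± 0.16 and in Bmal1KO;VhlKO 0.07 ± 0.16. On High-fat diet Col1a1 differed by 0.38 ± 0.22 in controls (adjusted p = 0.522) and 0.31 ± 0.25 in Bmal1KO (adjusted p = 0.618). Knockout and control ranges of Col1a2 overlapped in VhlKO.

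Col3a1, the chain of the thin type III fibrils, was at 137, 181, 188 and 206 CPM in VhlKO and 82.2, 115 and 191 CPM (lowest, median and highest) in controls. The ranges overlapped, and its rise of 0.48 ± 0.18 (adjusted p = 0.0334) was lost on leaving out any 1 of 6 libraries (controls 2, 4 and 5, knockouts 1, 3 and 4) and with the groups of the comparison fitted alone (adjusted p = 0.133). With High-fat diet in Bmal1KO its log2 fold change was 0.98 ± 0.29, which was not called (adjusted p = 0.0834), although all 5 libraries (82.1 to 135 CPM) lay above the 3 on chow (49.6 to 71.1 CPM). The difference in Bmal1KO;VhlKO was 0.19 ± 0.18 (adjusted p = 0.451).

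Type V chains set the diameter of type I fibrils. Col5a2 was at 13.6, 14.3, 14.7, 14.9 and 18.5 CPM in Bmal1KO on High-fat diet and 7.26, 9.29 and 10.2 CPM on chow. The groups did not overlap and it rose by 0.76 ± 0.20 (adjusted p = 0.0257), a call lost without any 1 of the chow knockouts or without High-fat diet knockout 4 (adjusted p of up to 0.132). In VhlKO it was at 20.2, 28.9, 30.4 and 31.9 CPM against 12.9, 18.5 and 26.4 CPM in controls, a rise of 0.55 ± 0.13 (adjusted p = 0.000884) with 1 knockout inside the control range. The effect of VhlKO exceeded that of Bmal1KO by 0.68, and by 0.63 without the libraries high in keratinocyte markers, where the call was lost (adjusted p = 0.0757). Col5a1 rose with High-fat diet in controls by 0.57 ± 0.16 (adjusted p = 0.043), with overlapping ranges (7.25 to 10.1 CPM on chow, 9.69 to 16.9 CPM on High-fat diet), and the call was lost without any 1 of 7 libraries (High-fat diet controls 2, 3, 4 and 6 and chow controls 1, 2 and 4). Col5a3 rose in VhlKO by 0.27 ± 0.11 (adjusted p = 0.0408), and lost the call without control 2, control 5 or knockout 3 and with DESeq2 (adjusted p = 0.0564).

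Col24a1, a minor fibrillar chain known from bone and cornea, gave few tags. In the 8 Bmal1 controls of batch 2 it had 2 to 13 counts per library, 62 in all, and in the 4 Bmal1KO libraries 0 to 6, 7 in all. Its log2 fold change was -2.24 ± 0.74 (adjusted p = 0.0319), and in VhlKO it was -1.84 ± 0.72 (adjusted p = 0.0385). Ranges overlapped in both, and the first call was lost without any 1 of 5 libraries (controls 12 and 15, knockouts 6, 8 and 9). The second was lost without any 1 of 7 libraries (controls 2, 3, 4 and 6, knockouts 1, 2 and 3) and with DESeq2 (adjusted p = 0.0527). Col11a1, at 0.643 to 5.84 CPM over batch 1, was called in no comparison.

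The basement membrane pair Col4a1 and Col4a2 rose in both diet comparisons and in both lines without Vhl. Col4a1 was at 35.5, 43.2, 43.8 and 45.0 CPM in controls on chow and at 47.9, 67.0 and 73.2 CPM (lowest, median and highest) on High-fat diet. All 7 libraries on High-fat diet lay above the 4 on chow, and it rose by 0.56 ± 0.12 on the log2 scale, 1.48-fold (adjusted p = 0.00688). In Bmal1KO it was at 35.3, 40.6 and 44.6 CPM on chow and 63.7, 65.1, 66.1, 71.0 and 87.2 CPM on High-fat diet, a rise of 0.81 ± 0.14, 1.76-fold (adjusted p = 0.000644), again with no overlap. The diet effects of the genotypes differed by 0.25 ± 0.18, which was not called (adjusted p of 1.00 in edgeR).

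In VhlKO, Col4a1 was at 102, 115, 123 and 124 CPM, against 68.9, 76.3 and 94.3 CPM in controls. In Bmal1KO;VhlKO it was at 99.1, 106, 109 and 129.7 CPM, against 62.2, 69.4 and 74.3 CPM. Neither knockout overlapped its controls. The rises were 0.55 ± 0.08 (1.47-fold, adjusted p = 3.23e-07) and 0.69 ± 0.08 (1.62-fold, adjusted p = 1.46e-09). In the Bmal1KO animals of batch 2 it was at 61.7, 66.5, 67.3 and 74.3 CPM, inside the range of their controls (59.4, 71.9 and 76.5 CPM), with a log2 fold change of -0.07 ± 0.08 (adjusted p = 0.652).

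Col4a2 followed the same order at lower levels. It was at 44.1, 55.8, 56.0 and 56.5 CPM in VhlKO and 32.7, 39.5 and 43.1 CPM in controls. The Bmal1KO;VhlKO libraries held 41.7, 42.6, 46.5 and 53.7 CPM and their controls 27.8, 31.9 and 35.7 CPM. Both comparisons were free of overlap, with rises of 0.46 ± 0.11 (adjusted p = 0.000573) and 0.54 ± 0.11 (adjusted p = 6.97e-05). With High-fat diet it rose by 0.56 ± 0.13 in controls (17.0 to 24.9 CPM on chow, 24.1 to 41.9 CPM on High-fat diet, with overlap, adjusted p = 0.0131) and by 0.67 ± 0.15 in Bmal1KO (22.1 to 24.3 and 32.01 to 42.01 CPM, without overlap, adjusted p = 0.00842). The rise in controls was lost without chow control 1 or 4. Without scaling factors the diet calls of Col4a1 and Col4a2 in controls (adjusted p = 0.0746 and 0.125) and of Col4a2 in Bmal1KO (adjusted p = 0.0588) were lost.

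The effects of the knockouts were compared with one another in tests of the difference. For Col4a1 the effect of VhlKO exceeded that of Bmal1KO by 0.63 ± 0.11 (adjusted p = 3.23e-05) and that of Bmal1KO;VhlKO exceeded it by 0.76 ± 0.11 (adjusted p = 2.15e-06). Both of these comparisons share the Bmal1 animals of batch 2. For Col4a2 the differences were 0.49 ± 0.15 (adjusted p = 0.0107) and 0.58 ± 0.15 (adjusted p = 0.00455). Without the libraries high in keratinocyte markers both calls were lost for Col4a2 (adjusted p = 0.0877 and 0.0611), with differences of 0.47 and 0.54. The effect of Bmal1KO;VhlKO against that of VhlKO differed by 0.14 ± 0.12 for Col4a1 and 0.08 ± 0.15 for Col4a2, which were not called. Over all 33 members, the effect of VhlKO was above that of Bmal1KO for 8 and below it for 0, where 25.3% of all genes were called (12.2% higher and 13.1% lower). The effect of Bmal1KO;VhlKO was above that of Bmal1KO for 3 and below it for 0, where 16.7% were called (7.69% higher and 9.04% lower). Between Bmal1KO;VhlKO and VhlKO 0 members were called with edgeR, where 8.56% of all genes were (4.51% higher and 4.06% lower, with 2 members at an unadjusted p under 0.05 and 0 with DESeq2).

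Endothelial and mural markers moved with Col4a1 and Col4a2 in the lines without Vhl. All 6 endothelial markers (Cdh5, Egfl7, Emcn, Kdr, Pecam1 and Tek) rose in VhlKO, with a sum of 240.4 to 311 CPM against 117 to 140.3 CPM in controls. All 6 rose in Bmal1KO;VhlKO as well, with sums of 201 to 267 against 119 to 135 CPM. Of the 6 pericyte and smooth muscle markers 4 rose in VhlKO (432 to 486 against 246 to 272 CPM) and 6 in Bmal1KO;VhlKO (448 to 523 against 242 to 270.5 CPM). Of the 8 fibroblast markers 4 rose and 1 fell in VhlKO (1287 to 1642 against 1067 to 1639 CPM) and 3 rose in Bmal1KO;VhlKO (1156 to 1292 against 990.3 to 1189 CPM). Of the 7 tendon markers 1 rose and 2 fell in VhlKO (116 to 147 against 159 to 212 CPM) and 1 fell in Bmal1KO;VhlKO (84.9 to 95.9 against 95.5 to 104 CPM). All 6 fibre markers fell in both. Over all genes, 17.7% were called higher and 19.5% lower in VhlKO, and 17.4% and 18.1% in Bmal1KO;VhlKO. The part of these markers in the collagen results was not tested. In the diet comparisons 0 of the 6 endothelial markers were called with edgeR in either genotype (1 in controls and 0 in Bmal1KO at an unadjusted p under 0.05), and their sums on chow and High-fat diet were 95.5 to 121 and 91.8 to 139.9 CPM in controls and 116 to 137 and 119 to 154 CPM in Bmal1KO. Of the 8 fibroblast markers 1 rose with diet in controls (955 to 1265 CPM in sum on chow, 904.5 to 1091 CPM on High-fat diet) and 2 in Bmal1KO (918 to 1022 and 999.5 to 1204 CPM). Of the 6 macrophage markers 1 rose in controls (33.6 to 56.1 and 44.7 to 66.7 CPM) and 2 in Bmal1KO (24.1 to 41.7 and 43.7 to 66.2 CPM). No fibre marker was called with diet in either genotype by edgeR (0 in controls and 4 in Bmal1KO at an unadjusted p under 0.05). Of the 7 tested tendon markers 1 rose in controls and 0 in Bmal1KO with edgeR (2 at an unadjusted p under 0.05 in each). The tendon sum was 75.5 to 96.03 CPM on chow and 96.5 to 176 CPM on High-fat diet in controls, without overlap, and 81.6 to 112 and 93.7 to 133 CPM in Bmal1KO. The pericyte and smooth muscle sum in Bmal1KO was 222 to 234 CPM on chow and 241 to 311 CPM on High-fat diet, also without overlap. Over all genes, 1.51% were called higher with diet in controls and 1.72% in Bmal1KO. The part of these cell types in the diet results was not tested.

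**Figure D3:**
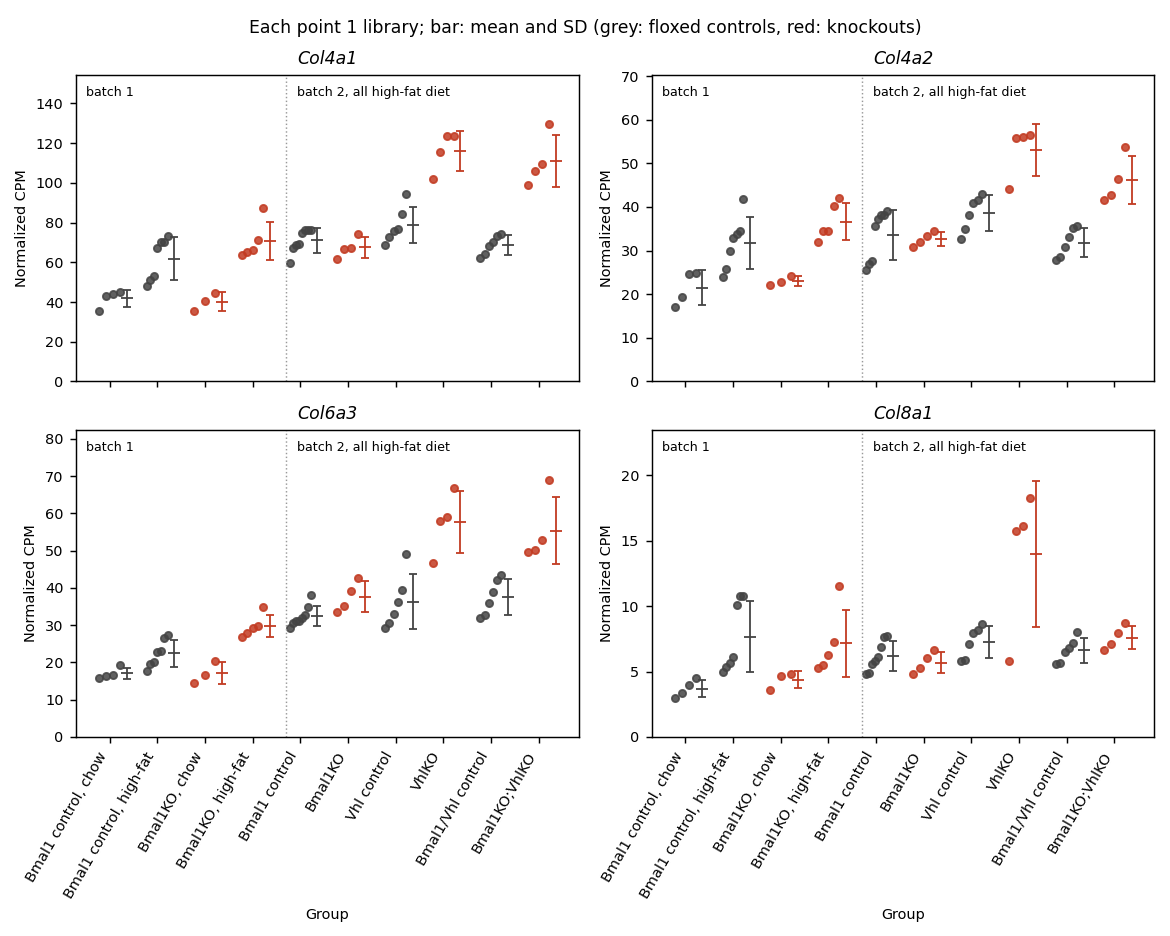
Normalized CPM of Col4a1, Col4a2, Col6a3 and Col8a1 in every library, by group, with the mean and SD of each group as bars. Col4a1 lies at 99.1 to 129.7 CPM in Bmal1KO;VhlKO and 102 to 124 CPM in VhlKO, above all control libraries of batch 2, and Col8a1 is high in 3 of the 4 VhlKO libraries.

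Col4a4, which with Col4a3 and Col4a5 makes the type IV network of kidney glomeruli, went the other way with diet. Controls on chow held 4.62, 7.15, 7.34 and 7.54 CPM and controls on High-fat diet 1.12, 2.41 and 3.22 CPM (lowest, median and highest). No library overlapped, and it fell by 1.55 on the log2 scale (SE 0.23, to 0.343 of the chow level, adjusted p = 0.000208). In Bmal1KO it was at 3.63, 3.94 and 4.54 CPM on chow and 2.75 to 5.13 CPM on High-fat diet, with a median of 4.07 CPM, a difference of -0.01 ± 0.28. Every chow knockout thus lay below every chow control, by a narrow margin (4.54 against 4.62 CPM), and that comparison was not called. The diet by genotype term was 1.54 ± 0.37 (unadjusted p = 0.000181), which did not pass over all genes (adjusted p = 0.384). Against the same High-fat diet controls, Bmal1KO was higher by 0.81 ± 0.23 (adjusted p = 0.0167), with overlap, and lost the call without knockout 3 or 5. These comparisons share control libraries, so the low level on High-fat diet enters both. In batch 2 the Bmal1KO difference was 0.24 ± 0.22 (1.86 to 3.29 against 1.19 to 3.56 CPM, adjusted p = 0.565).

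In VhlKO, Col4a4 rose by 0.81 ± 0.22 (adjusted p = 0.00284), with libraries at 3.45, 4.67, 4.93 and 5.20 CPM against 1.79, 2.45 and 3.57 CPM in controls. In Bmal1KO;VhlKO it was at 3.83 to 5.09 against 2.48 to 4.03 CPM, a difference of 0.48 ± 0.21 that was not called (adjusted p = 0.0647). Its neighbour Col4a3, which lies head to head with it on chromosome 1, stayed at or below 1.81 CPM in every library and was called in no comparison. Col4a3 shares exon sequence near its 3′ end with an antisense gene, C430014B12Rik, and it is not stated whether counting used the strand, so its reads may be mixed. Col4a5 was called in no comparison.

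Col15a1, a proteoglycan chain that ties the basement membrane to fibrils in muscle and capillaries, rose with High-fat diet in Bmal1KO by 0.83 ± 0.21 (adjusted p = 0.019). It was at 7.48, 8.34 and 8.82 CPM on chow and 12.1, 13.4, 14.5, 15.4 and 17.6 CPM on High-fat diet, without overlap, and lost the call without chow knockout 1 or 3 or High-fat diet knockout 4. In controls its difference of 0.58 ± 0.18 did not pass (adjusted p = 0.0829). In VhlKO it was 0.34 ± 0.15 (adjusted p = 0.0735). Col18a1, the source of endostatin, was at 1.47 to 7.96 CPM and was called in no comparison.

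Col7a1, the chain of anchoring fibrils best known from skin, was the basement membrane member called lower in Bmal1KO. In batch 2 the knockouts were at 0.741, 1.20, 1.27 and 1.35 CPM and the 8 controls at 1.74, 2.48 and 4.60 CPM (lowest, median and highest). The groups did not overlap and it fell by 1.24 on the log2 scale (SE 0.27, adjusted p = 0.000674). In batch 1 on High-fat diet it was at 0.199 to 1.03 CPM against 0.562, 1.41 and 3.76 CPM, a log2 fold change of -1.12 ± 0.45 that was not called (adjusted p = 0.128). On chow the knockouts were at 0.563, 0.588 and 0.589 CPM and the controls at 1.16, 1.20, 2.68 and 2.97 CPM, without overlap, and the log2 fold change of -1.77 ± 0.60 was not called (adjusted p = 0.107). These levels rest on few tags, 2 to 13 counts per library in the 5 Bmal1KO libraries on High-fat diet in batch 1 and 11 to 15 in the 4 of batch 2.

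The batches gave similar sizes for Col7a1, with a difference between them of -0.12 ± 0.54. Averaged over both batches on High-fat diet, a comparison added after the data were seen, its log2 fold change was -1.17 ± 0.26 (adjusted p = 0.000618), where 22.3% of all genes were called and 4 of 30 members. Those 4 were Col7a1 and, upward, Col4a4 (0.53 ± 0.17), Col6a3 (0.32 ± 0.07) and Col19a1 (1.04 ± 0.21), and the call of Col4a4 was lost without Bmal1KO 7 or 9 of batch 2. In Bmal1KO;VhlKO, Col7a1 was at 1.88 to 2.62 CPM against 2.39 to 4.75 CPM, -0.60 ± 0.25 (adjusted p = 0.0502), and in VhlKO -0.19 ± 0.26 (adjusted p = 0.598). Its effect in VhlKO lay above that in Bmal1KO by 1.05 ± 0.38 (adjusted p = 0.0351), a call lost without any 1 of 5 libraries (Bmal1 control 14, Bmal1KO 8, Vhl control 6, VhlKO 2 and 3) and with DESeq2 (adjusted p = 0.0512). The keratinocyte marker sum was 5.06, 6.64, 30.1 and 84.5 CPM in Bmal1KO of batch 2 and 5.08, 6.10 and 28.0 CPM (lowest, median and highest) in the controls, and the tendon marker sum was 86.8 to 122.7 against 123.1 to 156 CPM. Their part in the Col7a1 result was not tested.

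Type VI chains are secreted mostly by fibroblasts, and Col6a3 is the longest of them. In Bmal1KO it was at 14.5, 16.6 and 20.2 CPM on chow and 26.9, 28.0, 29.3, 29.8 and 34.8 CPM on High-fat diet. The groups did not overlap, and it rose by 0.80 ± 0.15, 1.74-fold (adjusted p = 0.00135). In controls it was at 15.9 to 19.3 CPM on chow and 17.6, 22.7 and 27.3 CPM on High-fat diet, a difference of 0.39 ± 0.13 that was not called (adjusted p = 0.0926). The diet by genotype term was 0.40 ± 0.19 (adjusted p of 1.00 in edgeR). On High-fat diet Bmal1KO of batch 1 was above its controls by 0.41 ± 0.11 (adjusted p = 0.0143), with overlap, and the call was lost without knockout 2. In batch 2 the difference was 0.21 ± 0.11 (33.5 to 42.7 against 29.3 to 38.0 CPM, adjusted p = 0.239).

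Col6a3 was at 46.6, 57.8, 59.0 and 66.8 CPM in VhlKO, against 29.2, 34.6 and 49.2 CPM in controls. In Bmal1KO;VhlKO it was at 49.5, 50.2, 53.0 and 68.9 CPM, against 31.8, 37.5 and 43.4 CPM. It rose by 0.66 ± 0.12 (adjusted p = 1.88e-05) in VhlKO, where 1 knockout lay inside the control range, and by 0.57 ± 0.12 (adjusted p = 0.000158) in Bmal1KO;VhlKO, without overlap. Col6a1 and Col6a2, which lie side by side on chromosome 10, rose in VhlKO by 0.46 ± 0.11 (adjusted p = 0.00112) and 0.54 ± 0.12 (adjusted p = 0.00045), with ranges of 21.9 to 32.5 against 16.6 to 25.3 CPM and 33.3 to 49.2 against 22.1 to 39.1 CPM. In Bmal1KO;VhlKO their log2 fold changes were 0.16 ± 0.12 and 0.20 ± 0.13 and were not called. Col6a2 also rose with High-fat diet in Bmal1KO by 0.94 ± 0.21 (adjusted p = 0.0134), from 12.1, 12.6 and 14.5 CPM to 21.3, 23.6, 24.1, 27.7 and 28.6 CPM. That call was lost without chow knockout 1 or 3. The effect of VhlKO on Col6a1, Col6a2 and Col6a3 exceeded that of Bmal1KO by 0.54, 0.52 and 0.45 (adjusted p = 0.0106, 0.021 and 0.0392), and the middle one was lost without Bmal1KO 6 or 8 or VhlKO 3 and without the libraries high in keratinocyte markers (0.59, adjusted p = 0.0878). The last was lost on leaving out any 1 of 11 libraries (Bmal1 controls 10 and 14, Bmal1KO 6 and 8, Vhl controls 1, 2, 4 and 5, VhlKO 2, 3 and 4).

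Col6a6, a rarer type VI chain of muscle, behaved unlike Col6a3. With High-fat diet in controls it fell by 1.21 on the log2 scale (SE 0.30, adjusted p = 0.0197), from 3.35, 3.48, 4.15 and 4.89 CPM to 0.985, 1.52 and 2.86 CPM (lowest, median and highest), without overlap. The call was lost without chow control 2 or 3. In Bmal1KO it was at 1.41, 1.68 and 3.34 CPM on chow and 2.05 to 4.47 CPM on High-fat diet (0.36 ± 0.36), and the diet by genotype term of 1.57 ± 0.47 did not pass (adjusted p = 0.741). Col4a4 and Col6a6 were thus the 2 members called lower on High-fat diet, and both had this in controls with a difference near 0 or upward in Bmal1KO. On chow, however, all Bmal1KO libraries lay below all controls for both genes, by narrow margins. Col4a4 was at 3.63 to 4.54 against 4.62 to 7.54 CPM and Col6a6 at 1.41 to 3.34 against 3.35 to 4.89 CPM, and neither was called. The share of all genes without overlap on chow was not counted, so these separations do not establish a difference. In Bmal1KO;VhlKO Col6a6 rose by 0.78 ± 0.19 (adjusted p = 0.000893), at 4.38, 4.85, 5.47 and 7.86 CPM against 2.66, 2.88 and 4.43 CPM. This effect exceeded that of Bmal1KO by 0.99 ± 0.27 (adjusted p = 0.00718, and 0.101 without the libraries high in keratinocyte markers). In VhlKO its difference was 0.33 ± 0.20 (adjusted p = 0.201). The gene overlaps the predicted gene Gm38314 away from its 3′ end.

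Col8a1, a short-chain collagen of vessel walls, rose with High-fat diet in controls by 1.06 ± 0.25, 2.08-fold (adjusted p = 0.0177). It was at 2.97, 3.35, 3.99 and 4.47 CPM on chow and 4.95, 6.14 and 10.8 CPM on High-fat diet, without overlap, and the call was lost without chow control 2, 3 or 4. In Bmal1KO its difference was 0.72 ± 0.29 (3.61 to 4.81 and 5.29 to 11.5 CPM, without overlap), which was not called (adjusted p = 0.194). In VhlKO it was at 5.77, 15.7, 16.2 and 18.3 CPM against 5.79, 7.54 and 8.63 CPM in controls. 3 of the 4 knockouts were above every control and the fourth was below them all, and the rise was 0.93 ± 0.19 (adjusted p = 0.000102). The cartilage and bone marker sum had the same library pattern, at 28.1, 17.0 and 30.1 CPM in knockouts 1, 3 and 4, 6.70 CPM in knockout 2 and 8.21 to 12.8 CPM in controls. Nearly all of that sum was Sox9, the 1 marker of 8 that passed the filter in batch 2, and its part in the Col8a1 result was not tested. In Bmal1KO;VhlKO all 4 libraries (6.69 to 8.69 CPM) were near their controls (5.60 to 8.06 CPM), a difference of 0.21 ± 0.19. The 2 effects differed by -0.72 ± 0.27, which was not called (adjusted p = 0.09), whereas the effect of VhlKO exceeded that of Bmal1KO by 1.06 ± 0.27 (adjusted p = 0.00285). Its partner chain Col8a2, at 0.196 to 2.80 CPM, was called in no comparison. In Bmal1KO, Col8a2 was nevertheless at 1.29 to 2.05 CPM on High-fat diet and 0.196 to 0.672 CPM on chow, without overlap.

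Col19a1, a fibril-associated chain known from interneurons and from differentiating muscle, was higher in Bmal1KO. In batch 2 it was at 1.37, 1.68, 2.43 and 3.50 CPM against 0.491, 0.956 and 1.53 CPM in the controls, a rise of 1.23 ± 0.33 (2.34-fold, adjusted p = 0.00736). The lowest knockout lay inside the control range, and the call was lost without Bmal1KO 9. In batch 1 on High-fat diet the difference was 0.83 ± 0.29 (1.29 to 3.23 against 0.985 to 1.84 CPM) and was not called (adjusted p = 0.0735). On chow it was -0.37 ± 0.39 (1.18 to 1.88 against 1.52 to 2.54 CPM). It also rose in Bmal1KO;VhlKO, by 1.07 ± 0.33 (adjusted p = 0.00981), with libraries at 1.25, 1.85, 3.28 and 6.14 CPM against 0.762, 1.54 and 1.95 CPM, a call lost without knockout 1. In VhlKO the difference was 0.63 ± 0.40 (adjusted p = 0.22). Some satellite cell markers were called in the same lines. Of the 3 tested, 1 rose in Bmal1KO of batch 2, with a sum of 15.5 to 16.6 against 10.3 to 12.2 CPM, and 2 rose in Bmal1KO;VhlKO, with a sum of 13.8 to 21.4 against 9.23 to 11.5 CPM. Over all genes, 6.94% and 17.4% were called higher there. In VhlKO 0 rose and 1 fell (11.04 to 15.3 against 12.3 to 15.5 CPM), where 19.5% of all genes were called lower. In batch 1 the sum overlapped in both diets. It was 11.0 to 18.8 CPM in Bmal1KO and 9.85 to 13.8 CPM in controls on High-fat diet. On chow it was 10.0 to 21.7 CPM in Bmal1KO and 11.7 to 16.6 CPM in controls. Their part in the Col19a1 result was not tested.

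**Figure D4:**
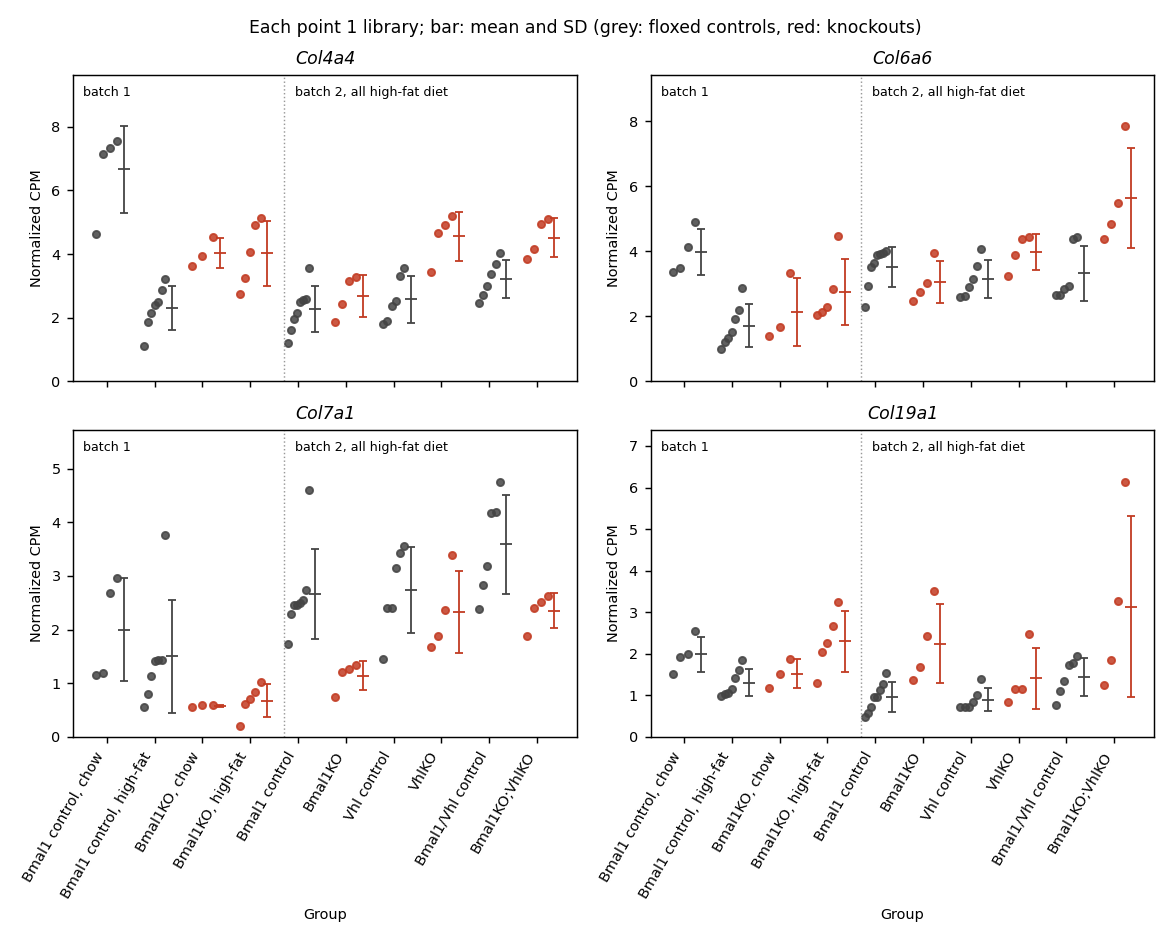
Normalized CPM of Col4a4, Col6a6, Col7a1 and Col19a1 in every library, by group, with the mean and SD of each group as bars. Col4a4 lies at 4.62 to 7.54 CPM in chow controls and 1.12 to 3.22 CPM in controls on High-fat diet, and Col7a1 at 0.741 to 1.35 CPM in Bmal1KO of batch 2, below all 8 of its controls.

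The remaining chains gave few calls. Col9a1, a cartilage chain, had 3 to 11 counts per library in Vhl controls and 0 to 4 in VhlKO. Its log2 fold changes were -1.98 ± 0.76 in VhlKO (adjusted p = 0.0355) and -2.41 ± 0.69 in Bmal1KO;VhlKO (adjusted p = 0.00516), with overlapping ranges in both, and the first was lost without any 1 of 5 libraries (controls 1 and 3, knockouts 2, 3 and 4). The cartilage and bone marker sum went the other way, at 13.3 to 23.2 CPM in Bmal1KO;VhlKO against 6.81 to 12.4 CPM in controls. It was above the controls in 3 of the 4 VhlKO libraries as well, and Sox9, its main part, rose in both lines, while the mean of Acan, the cartilage proteoglycan, was at most 0.133 unscaled CPM in these groups. Their part in the Col9a1 result was not tested. Col12a1, Col14a1, Col16a1 and Col22a1, the fibril-associated chains above 1 CPM apart from Col19a1, and the transmembrane chains Col13a1 and Col23a1 were called in no comparison. Col22a1, which marks muscle-tendon junctions, was at 1.91 to 10.7 CPM. Col13a1 and Col25a1, transmembrane chains of the neuromuscular junction and of muscle during innervation and named after their values were seen, differed in Bmal1KO;VhlKO by 0.77 ± 0.33 (adjusted p = 0.0671) and 1.27 ± 0.53 (adjusted p = 0.0559), which were not called. Col25a1 was at 0.874 to 3.40 CPM in these animals and 0.381 to 1.96 CPM in their controls, and at 0 to 0.876 CPM in the Bmal1 and Vhl lines of batch 2.

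Pairs of chains, some that share a trimer and some that do not, were compared library by library. Each group's mean log2 CPM was subtracted first, over 11 pairs in each batch (22 tests, permutation within groups, Benjamini-Hochberg adjusted). Col1a1 and Col1a2 gave a Pearson r of 0.95 in batch 1 (19 libraries) and 0.88 in batch 2 (32 libraries), with Spearman rho of 0.96 and 0.85 (adjusted permutation p = 7.33e-05 for each r, from the smallest p that the permutations can give). For Col4a1 and Col4a2 r was 0.67 (rho 0.65, adjusted permutation p = 0.011) and 0.72 (rho 0.75, adjusted permutation p = 0.000264). In batch 1 it fell to 0.56 without the 2 libraries farthest from the median (adjusted permutation p = 0.077), so it rests in part on them. For Col6a1 and Col6a2 r was 0.53 (rho 0.58, adjusted permutation p = 0.0323) and 0.74 (rho 0.68, adjusted permutation p = 0.000367), and without the 2 farthest libraries 0.45 and 0.66. In batch 1 this relation, too, no longer passed and rests in part on those 2 libraries.

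Other partners showed less. Col6a1 and Col6a3 gave r of -0.14 and 0.41 (adjusted permutation p = 0.788 and 0.0641), and Col8a1 and Col8a2 -0.09 and -0.11 (adjusted permutation p = 0.811 and 0.799). Col4a3 and Col4a4 gave 0.54 in batch 1 (adjusted permutation p = 0.0601) and 0.01 in batch 2 (adjusted permutation p = 0.964). Col5a1 and Col5a2 gave 0.16 in batch 1 (rho 0.45, adjusted permutation p = 0.781 for r) and 0.65 in batch 2 (rho 0.60, adjusted permutation p = 0.00223 for r). Pairs that share no trimer were related as well. Col1a1 and Col3a1 gave 0.94 and 0.78 (adjusted permutation p = 7.33e-05 and 0.000264), above Col4a1 with Col4a2 in both batches. Col1a1 and Col4a1 gave 0.72 and 0.60 (adjusted permutation p = 0.00882 and 0.00536). In batch 1 this relation rests in part on the 2 farthest libraries, without which r was 0.59 and no longer passed. Col15a1 with Col18a1 (-0.07 and 0.40) and Col12a1 with Col14a1 (0.34 and 0.35) did not pass (adjusted permutation p = 0.825 and 0.122, and 0.149 for each). The mean ratio of Col4a1 to Col4a2 in the 10 groups ran from 1.74 in Bmal1KO on chow to 2.41 in Bmal1KO;VhlKO.

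**Figure D5:**
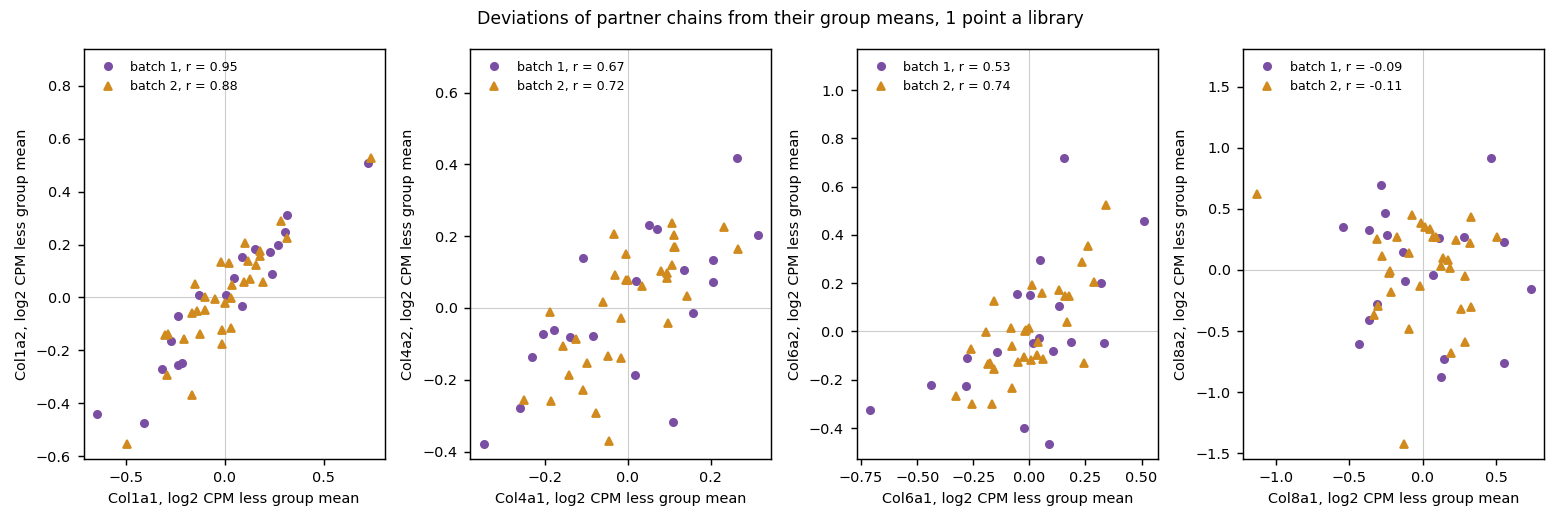
Deviation of each library from its group mean in log2 CPM for pairs of collagen chains, one point per library, coloured by batch. Points of Col1a1 and Col1a2 lie along a line (r of 0.95 and 0.88), and those of Col8a1 and Col8a2 do not (r of -0.09 and -0.11).

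Genes that fold, cut, crosslink and bind collagens were described by list. Their counts are to be read against all genes tested, of which 17.7% were called higher and 19.5% lower in VhlKO, and 17.4% and 18.1% in Bmal1KO;VhlKO. With diet these shares were 1.51% and 0.854% in controls, and 1.72% and 1.57% in Bmal1KO. For Bmal1KO of batch 1 on High-fat diet they were 3.82% and 5.18%. Of the folding and hydroxylation genes, 8 of 17 rose in VhlKO and 0 fell, and 6 rose and 1 fell in Bmal1KO;VhlKO, with list medians of 0.50 and 0.25. P4ha1, a catalytic subunit of prolyl 4-hydroxylase, rose by 2.39 ± 0.09 in VhlKO and 2.11 ± 0.09 in Bmal1KO;VhlKO, 5.26-fold and 4.32-fold. The lysyl hydroxylase Plod2 rose by 1.19 ± 0.19 and 1.19 ± 0.18, and the prolyl 3-hydroxylase P3h2 by 1.75 ± 0.25 and 2.05 ± 0.24. With High-fat diet 1 of 16 rose in controls and 2 of 16 in Bmal1KO. Serpinh1, the collagen chaperone HSP47, rose by 0.91 ± 0.18 in controls (adjusted p = 0.00436) and 1.37 ± 0.21 in Bmal1KO (adjusted p = 0.000281). In Bmal1KO on chow and in Bmal1KO of batch 2, 0 of these genes were called with edgeR (1 and 2 at an unadjusted p under 0.05), and 1 of 16 fell in batch 1 on High-fat diet (P4ha2, -0.42 ± 0.13).

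Of the processing and crosslinking genes, 4 of 9 rose and 1 fell in VhlKO and 2 of 9 rose in Bmal1KO;VhlKO. Loxl2, a lysyl oxidase that acts on type IV collagen, rose by 1.38 ± 0.13 and 1.48 ± 0.14. Pxdn, which crosslinks type IV collagen, rose in VhlKO by 0.66 ± 0.20. Loxl1 rose with diet by 0.62 ± 0.15 in controls and 0.60 ± 0.17 in Bmal1KO. Of the 10 laminins, nidogens and other basement membrane partners of type IV collagen, 3 rose in VhlKO (Hspg2 0.56 ± 0.11, Lamb1 0.39 ± 0.10 and Lama4 0.36 ± 0.13), 3 in Bmal1KO;VhlKO (Lama5 0.50 ± 0.16, Lamb1 0.44 ± 0.10 and Hspg2 0.31 ± 0.11) and 3 with diet in Bmal1KO (Nid2 1.16 ± 0.32, Lamb1 0.67 ± 0.16 and Lama4 0.61 ± 0.16). With diet in controls 0 of the 10 were called with edgeR (1 at an unadjusted p under 0.05), and their median was 0.19. Over all genes, 1.72% were called higher with diet in Bmal1KO, against 17.7% in VhlKO and 17.4% in Bmal1KO;VhlKO.

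Of the collagen receptors, 4 of 8 rose in VhlKO and 2 of 8 in Bmal1KO;VhlKO. Itga1, the integrin chain that binds type IV collagen, rose by 1.21 ± 0.20 and 0.93 ± 0.19, and Ddr1 by 0.74 ± 0.14 in VhlKO. Of the fibril-associated proteins, Lum, a proteoglycan of collagen fibrils, rose by 0.92 ± 0.12 in VhlKO and 0.76 ± 0.12 in Bmal1KO;VhlKO. Others of this list were called lower, Thbs4 (-0.47 ± 0.09) and Fmod (-0.65 ± 0.13) in VhlKO. In Bmal1KO of batch 2, Thbs4 (-0.69 ± 0.09) and Postn (-0.73 ± 0.24) were called lower. Bgn and Sparc, which bind fibrils and basement membranes, rose with diet in controls by 0.60 ± 0.16 and 0.56 ± 0.14. Aebp1, a collagen-binding protein that aids fibril assembly, fell in every knockout comparison, by 2.32 ± 0.14 in Bmal1KO of batch 1 on High-fat diet, 2.29 ± 0.19 on chow, 2.39 ± 0.10 in batch 2, 1.49 ± 0.10 in VhlKO and 2.16 ± 0.10 in Bmal1KO;VhlKO. No fibrillar chain fell with it except the scarce Col24a1, in Bmal1KO of batch 2 and VhlKO.

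Of the matrix proteases and inhibitors, Timp1 rose with diet by 2.63 ± 0.59 in controls and 4.05 ± 0.84 in Bmal1KO, and Timp4 rose in VhlKO by 1.56 ± 0.13 and in Bmal1KO;VhlKO by 1.52 ± 0.13. Of the 13 TGF-beta genes, 3 rose in VhlKO and 3 in Bmal1KO;VhlKO, where 1 fell, counts near the share of all genes called higher. Tgfb1 rose by 1.63 ± 0.33 and 1.65 ± 0.31, and Tgfb3, which also rose in Bmal1KO of both batches on High-fat diet (0.50 ± 0.13 and 0.65 ± 0.09), by 0.60 ± 0.10 and 1.46 ± 0.10. Smad7, an inhibitor of the pathway, fell with diet in Bmal1KO by 0.99 ± 0.20. On chow it was higher in Bmal1KO than in controls by 0.75 ± 0.21 (adjusted p = 0.0331). Both comparisons use the chow knockouts, so their high level enters both. Smad3 of the same list was called lower with diet in controls (-0.65 ± 0.16). Activity of the pathway was not tested.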

How the data were processed

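RNA of whole gastrocnemius was made into 3′ tag libraries, 1 per animal, per the labels' protocols. The authors deposited whole-number counts per gene symbol. The submitters' processing notes name STAR 2.6.0, HTSeq and FastQC 0.11.4 as tools and mm10 and GRCm38.p4 as builds. Whether counting used the strand is stated in none of the sources used here. The authors' normalized counts, a deposited signal on a common library size (edgeR 3.26.8, per the submitters' processing notes), entered 1 alternative.

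Counts were fitted in R 4.3.3 with edgeR 4.0.16 (filterByExpr, TMM, robust quasi-likelihood, all groups of a batch together), and 12762 genes of batch 1 and 13093 of batch 2 passed the filter. P-values were Benjamini-Hochberg adjusted over all genes tested. Error terms on log2 fold changes are standard errors. Overlap of groups was read from single libraries and is no test, and the share of all genes without overlap was not counted. Comparisons across batches used 1 joint fit (12565 genes). Pairs of chains were compared on log2 CPM (prior count 2) with 100000 permutations within groups. The total count was 6945247 to 14717795 per library, and few tags limit chains under about 1 CPM. P-values measure the spread between animals. Replicate pairs all differed by more than sampling noise.

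Alternatives were DESeq2 1.42.0, limma 3.58.1 on the deposited normalized counts with a pseudocount of 0.5, other scaling and filters, an adjusted p of 0.01, the groups of a comparison alone, the replicate number as a block, and leaving out each library. Fits without libraries high in keratinocyte markers were added after seeing the data. The fits were tested on simulated counts with changes put into genes above about 1 CPM. Changes of 1.5-fold were recovered in 14.9% of cases for Bmal1KO on chow, 23.9% for diet in Bmal1KO and 41.8% for diet in controls. The share was 53.7% for VhlKO and for Bmal1KO;VhlKO and 65.7% for Bmal1KO of batch 2. Changes of 2-fold were recovered in 58.2 to 92.5%. Absence of a call thus does not show absence of a change of this size.

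Gene coordinates follow GENCODE M21, and sequences are those of RefSeq on GRCm38.p6. Genes named were every member called in at least 1 of 12 comparisons and the 3 highest members of each class. From each pathway list some called genes were named, out of up to 4 with the smallest p per comparison. The members and lists were chosen with earlier results of these data known. Col4a3, Col4a5, Col8a2, Col11a1, Col13a1, Col18a1, Col22a1, Col25a1 and others without a call were named after their values were seen.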

Additional observations from a re-analysis of the deposited data

Results flagged for a closer look

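Single libraries stood apart from the others of their group in 9 of the 171 checks of a gene in a group, made over 19 genes in groups of 4 to 8. Chance alone gives such a result in about 1 group in 20. In the fibrillar class, Vhl control 6 had the highest Col1a1 of its group, 169 CPM. In Bmal1KO on High-fat diet of batch 1, animal 3 had a Col5a1 level of 15.5 CPM and animal 4 a Col5a2 level of 18.5 CPM, each the highest of 5. Chow control 4 had the lowest Col5a3 of its group, 11.2 CPM.

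In the basement membrane class, chow control 4 also had the lowest Col4a4 of its group, 4.62 CPM. VhlKO animal 2 had the lowest Col4a2 of the 4 knockouts, 44.1 CPM, against 55.8 CPM in the next. For Col7a1, High-fat diet control 1 of batch 1 was high at 3.76 CPM and Bmal1 control 14 of batch 2 at 4.60 CPM. Among the other chains, Vhl control 6 had the highest Col6a2 of its group, 39.1 CPM.

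The effect of 1 knockout differed from that of another in 11 tests, by the test of the difference in edgeR with an adjusted p under 0.05. On the log2 scale Bmal1KO;VhlKO exceeded Bmal1KO by 0.76 for Col4a1, 0.58 for Col4a2 and 0.99 for Col6a6. VhlKO exceeded Bmal1KO by 0.63 for Col4a1, 0.49 for Col4a2, 0.68 for Col5a2 (0.63 and no longer called without the libraries high in keratinocyte markers), 0.54 for Col6a1, 0.52 for Col6a2, 0.45 for Col6a3, 1.05 for Col7a1 and 1.06 for Col8a1. Of the genes in this list, only Col4a1 and Col4a2 were called against Bmal1KO in both lines without Vhl. Most endothelial and mural markers rose in both of these lines. In Bmal1KO of batch 2 the endothelial sum was 114 to 138 CPM against 108 to 129 CPM in controls, and the pericyte and smooth muscle sum 231 to 267 against 233 to 285 CPM. Their part was not tested.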

How the results depend on the processing

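Of 50 calls of single collagen genes, 20 held under every alternative run and 0 changed direction. Leaving out 1 library ended 75 of 692 calls rechecked. Col4a1 and Col4a2 in VhlKO and Bmal1KO;VhlKO were lost under none of the alternatives.

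Counts of collagen genes called moved as follows. With an adjusted p under 0.01, 2 of the 6 diet calls in controls and 3 of the 6 in Bmal1KO were left, 0 of 2 for Bmal1KO in batch 1, and 3 of 8 for VhlKO against Bmal1KO. Without scaling factors there were 3 in each diet comparison, 22 in Bmal1KO;VhlKO, 5 for Bmal1KO;VhlKO against Bmal1KO and 7 for Bmal1KO averaged over the batches. Keeping genes with an average log2 CPM of at least 1 gave 1 for Bmal1KO in batch 2 and 2 for the average, and no filter gave 2 for Bmal1KO;VhlKO against VhlKO. Without chow control 2 and chow knockout 1, the diet calls in controls were 3. Without libraries high in keratinocyte markers there were 1 of 3 for Bmal1KO;VhlKO against Bmal1KO and 5 of 8 for VhlKO against Bmal1KO. The causes were not tested.

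Leaving out each library gave 3 to 7 calls for diet in controls (fewest without chow control 2 or 4) and 3 to 6 in Bmal1KO (fewest without chow knockout 1 or 3). It gave 1 to 3 for Bmal1KO in batch 1 and in batch 2, 8 to 13 for VhlKO, 6 to 10 for Bmal1KO;VhlKO, 0 to 2 for Bmal1KO;VhlKO against VhlKO and 5 to 9 for VhlKO against Bmal1KO.

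Animal numbers recur across groups. In Bmal1KO of batch 2, sample titles and column names give different numbers for every library but animal 6. The title numbers were used here, so which controls share a number with these knockouts is uncertain. Same-numbered libraries deviated together with r of -0.384 to 0.244 over the 7 pairs of groups. With 2 to 5 shared numbers per pair of groups, this cannot tell whether they share more than a number. With the number as a replicate block, the calls were 7 and 5 for diet, 0 and 1 for Bmal1KO in batches 1 and 2, 10 for VhlKO, 6 for Bmal1KO;VhlKO, 1 for each of these against Bmal1KO and 2 for the average. Under this block 19 of the 50 calls of single genes were lost. Among them was Col7a1 in Bmal1KO of batch 2 (-0.97, adjusted p = 0.288).

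Without the 2 libraries farthest from the median, batch 1 correlations of pairs were 0.56 for Col4a1 with Col4a2, 0.62 for Col4a3 with Col4a4, 0.45 for Col6a1 with Col6a2, 0.051 for Col6a1 with Col6a3, 0.12 for Col8a1 with Col8a2 and 0.59 for Col1a1 with Col4a1. In batch 2 they were -0.13 for Col4a3 with Col4a4 and 0.066 for Col8a1 with Col8a2. Chains under about 1 CPM rest on few tags, which limits the precision of their values.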

Other observations

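Col3a1 and Col1a1 stood in a different ratio in Bmal1KO on chow from the other groups of batch 1. The ratio was 0.859 to 1.03 in these 3 libraries, 1.23 to 1.60 in chow controls and 1.30 to 1.66 in Bmal1KO on High-fat diet. Col11a1, a minor fibrillar chain of cartilage that was not called there, was at 3.94 to 4.20 CPM in the same 3 libraries and 1.27 to 3.08 CPM in chow controls. Both were picked after their values were seen.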
